A study of Homo sapiens with 12 samples.

Results

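Apolipoproteins are the protein components of lipoprotein particles, which carry cholesterol and triglyceride in plasma. Liver cells make most of them. APOB is the structural protein of very low density and low density lipoproteins. APOA1 and APOA2 are the main proteins of high density lipoprotein (HDL), and the small APOC proteins and APOE move between particles and set how fast these are broken down or taken up. The genes examined were 10 named apolipoprotein genes, APOA1, APOA2, APOA4, APOA5, APOB, APOC1, APOC2, APOC3, APOE and APOM. They were chosen by name, with earlier results of these data known. Matched transcripts were found for 9 of them, and all 9 passed the filter on low counts, among 12821 genes tested of 35810 genes with a matched transcript. APOM was not analysed here.

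Polyadenylated RNA was sequenced from HepG2, human hepatoma cells that secrete lipoproteins in culture. The 4 groups, of 3 libraries each, were ARID1B-KO cells with sorafenib at 5 µM for 48 h, ARID1B-KO cells with DMSO, wild-type (WT) cells with the same dose of sorafenib, and WT cells with DMSO at 0.1%. ARID1B is a subunit of the BAF chromatin remodelling complex, here targeted by CRISPR/Cas9, and sorafenib inhibits RAF and receptor kinases. The labels call the replicates biological and do not say how many knockout clones were used, so a property of a clone and the loss of ARID1B cannot be told apart. Each gene's reads come from all cells of a library, so fewer expressing cells and less RNA per cell cannot be told apart either.

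Libraries held 19739582 to 29398257 estimated counts. ARID1B was lower in ARID1B-KO than in WT by -1.19 ± 0.11 on the log2 scale with DMSO and by -1.18 ± 0.11 with sorafenib (edgeR adjusted p = 7.44e-06 and 8.89e-06), so its RNA was reduced and still present. All 9 hepatocyte markers had counts in every group, and their sum was 110065 to 171475 CPM in ARID1B-KO with sorafenib, 81429 to 94047 CPM in ARID1B-KO with DMSO, 88101 to 94567 CPM in WT with sorafenib and 69371 to 74258 CPM in WT with DMSO. The sum was higher with sorafenib in both genotypes, but single markers did not all follow it. With sorafenib 5 of the 9 markers rose and 4 did not pass in ARID1B-KO, and 3 rose, 1 fell and 5 did not pass in WT, where TTR fell by -0.90 ± 0.12. ARID1B-KO against WT with DMSO had 1 marker higher (ALB, 0.65 ± 0.19) and 3 lower, among them FGB (-3.95 ± 0.21) and TTR (-0.77 ± 0.12), and with sorafenib 2 higher and 1 lower, FGB. The part of these markers in the members' results was not tested. Of 5 gut epithelium markers, SI, LCT and FABP6 were at 0 in all groups. ALPI had counts only in WT with DMSO, and FABP2 had counts in every group. Of 6 macrophage markers, the leukocyte marker PTPRC was at 0 in all groups. In WT with DMSO 3 of them had counts, and in each other group 4. The sum of 5 cholangiocyte markers was 434 to 615 CPM over the libraries. Sums were 0.94 to 22.07 CPM for 5 fibroblast markers and 1.16 to 10.65 CPM for 4 endothelial markers. The macrophage marker sum, 488 to 624 CPM in ARID1B-KO with sorafenib, 1849 to 2481 CPM in ARID1B-KO with DMSO, 838 to 953 CPM in WT with sorafenib and 3638 to 4048 CPM in WT with DMSO, was nearly all LYZ, whose mean was 506, 2018, 862 and 3868 CPM in the same groups. CPM are counts scaled to a common library size with TMM factors.

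The members lie in 2 gene clusters and at 2 single loci on GRCh38. APOA5 (chromosome 11, 116789367 to 116792420), APOA4 (116820700 to 116823304), APOC3 (116829706 to 116833072) and APOA1 (116835751 to 116837622) lie within 48.3 kb, APOC3 on the plus strand and the others on the minus strand. APOE (chromosome 19, 44905791 to 44909393), APOC1 (44914247 to 44919349) and APOC2 (44946035 to 44949565) lie within 43.8 kb, all on the plus strand. APOA2 is on chromosome 1 (161222292 to 161223631) and APOB on chromosome 2 (21001429 to 21044073), both on the minus strand.

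The promoter sequences of 3 genes are shown, because APOA4 and APOA5 rose together with sorafenib and APOA2 fell. No promoter sequence was available here for APOC3, APOA1 or APOB. Each is the 250 bases before an annotated start, from RefSeq on GRCh38.p14, read 5′ to 3′ on the gene's strand. Capitals mark AAAGTCCA, part of sites bound by hepatocyte nuclear receptors, AGGTCA, the core of many nuclear receptor sites, and TATAAA, on either strand.
APOA4 promoter, chr11:116823305-116823554, minus strand: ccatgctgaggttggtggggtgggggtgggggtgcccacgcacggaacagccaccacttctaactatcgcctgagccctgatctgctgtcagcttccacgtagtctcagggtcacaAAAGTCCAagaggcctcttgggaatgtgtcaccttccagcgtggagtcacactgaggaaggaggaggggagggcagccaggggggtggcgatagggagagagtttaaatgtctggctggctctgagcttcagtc
APOA5 promoter, chr11:116792421-116792670, minus strand: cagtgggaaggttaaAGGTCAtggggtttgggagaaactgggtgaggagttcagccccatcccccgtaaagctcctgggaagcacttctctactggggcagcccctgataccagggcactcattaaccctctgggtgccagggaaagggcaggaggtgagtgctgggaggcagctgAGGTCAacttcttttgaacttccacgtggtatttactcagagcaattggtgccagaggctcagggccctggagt
APOA2 promoter, chr1:161223629-161223878, minus strand: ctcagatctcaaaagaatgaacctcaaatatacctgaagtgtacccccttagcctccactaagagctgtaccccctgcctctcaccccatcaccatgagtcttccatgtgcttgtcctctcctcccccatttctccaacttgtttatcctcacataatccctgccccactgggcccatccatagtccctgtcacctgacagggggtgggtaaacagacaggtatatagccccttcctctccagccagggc

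The APOA4 window holds AAAGTCCA once, 134 bases before the start, a run of letters found in 0.98% of 35116 promoters of the same length. AGGTCA occurs in the printed APOA5 window 235 and 74 bases before the start, and in 12.08% of those promoters. A second APOA5 window, not printed, holds it 156 bases before its own start. The APOC2 window, not printed, holds AGGTCA 156 bases and TATAAA 30 bases before the start (TATAAA is in 10.72% of promoters). None of these 3 runs of letters was in the windows of APOA2, APOC1 or APOE. The search also took in paired copies of the nuclear receptor core and another longer run of letters. Each is found in 0.01% to 0.02% of the 35116 promoters, and none was in any member window searched. Shorter runs searched beside them are not listed here. Binding was not measured, and a match is only a description of the letters.

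Between-gene levels were compared as TPM, which is per transcript length. With DMSO, APOA2 stood highest, at 13498 ± 2686 TPM in ARID1B-KO and 12844 ± 1748 TPM in WT (SD, n = 3 for each mean here). APOA1 followed at 3466 ± 413 TPM in ARID1B-KO and 2644 ± 110 TPM in WT. With sorafenib the order of these HDL proteins changed. APOA1 stood at 7556 ± 852 TPM and APOA2 at 6976 ± 763 TPM in ARID1B-KO with sorafenib, with overlapping libraries, and APOA1 at 6014 ± 250 TPM and APOA2 at 5416 ± 299 TPM in WT with sorafenib, without overlap.

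APOE and APOB followed APOA1 and APOA2 in every group but ARID1B-KO with sorafenib, where APOC1, at 894 ± 64.1 TPM, overlapped APOB and had the higher mean. In that group APOC1-205, of 273 bases, held 58.7%, 70.2% and 60.7% of APOC1 TPM on 441, 461 and 396 estimated counts. It held 47.6% to 65.9% in ARID1B-KO with DMSO and 20.7% to 40.7% in the WT libraries. APOC1 TPM, and its rank beside APOB, therefore lean on a short transcript. APOB averaged 848 ± 149 TPM in ARID1B-KO with sorafenib, 1616 ± 333 TPM in ARID1B-KO with DMSO, 909 ± 96.3 TPM in WT with sorafenib and 1559 ± 296 TPM in WT with DMSO. APOE averaged 3348 ± 531, 1846 ± 260.2, 2014.5 ± 116 and 1293 ± 119 TPM in the same groups. The libraries of the 2 genes overlapped with DMSO in both genotypes, while with sorafenib APOE lay above APOB in every library of both. APOE-204, of 737 bases, held 61.4% to 69.1% of APOE TPM in the ARID1B-KO libraries and 70.0% to 74.8% in the WT libraries. The standard transcript, APOE-201, has 1166 bases. APOE TPM, and its order beside APOB, therefore lean on the shorter transcript.

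APOA5 and APOA4 were lowest in every group, below the APOC genes. In WT with DMSO, APOC1 was at 456 ± 74.6, APOC2 at 381 ± 20.9, APOC3 at 78.0 ± 6.54, APOA5 at 16.9 ± 1.76 and APOA4 at 1.16 ± 0.214 TPM. APOC1 and APOC2 overlapped there, and the neighbours below them in that order did not overlap. In ARID1B-KO with sorafenib the same genes stood at 894 ± 64.1, 544 ± 32.6, 651 ± 31.5, 75.9 ± 14.6 and 3.72 ± 0.221 TPM, so APOC3 lay above APOC2. Together the 9 genes made up 2.09% ± 0.195 of all TPM in ARID1B-KO with sorafenib, 2.16% ± 0.324 in ARID1B-KO with DMSO, 1.58% ± 0.044 in WT with sorafenib and 1.93% ± 0.144 in WT with DMSO.

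**Figure D1:**
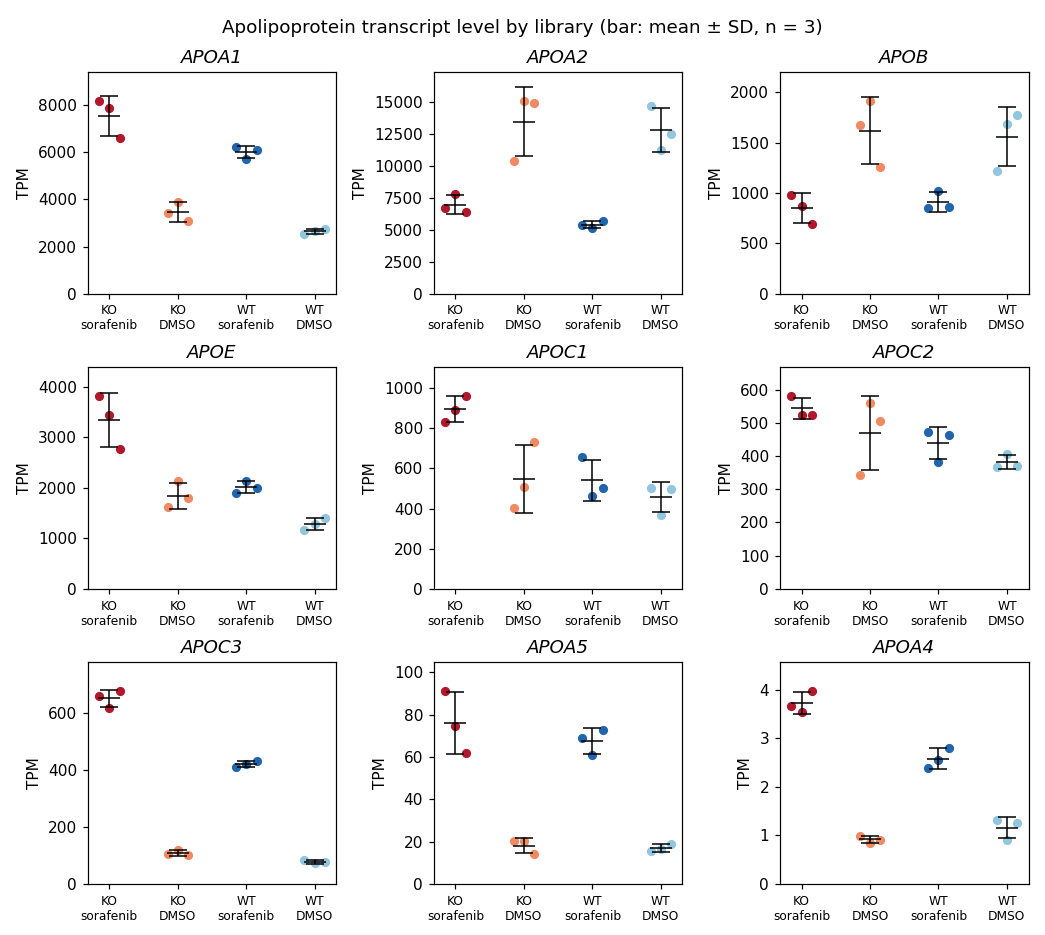
TPM of the 9 measured apolipoprotein genes in each library (points), with the mean and SD of 3 libraries (black), for ARID1B-KO and WT cells with sorafenib or DMSO. APOC3, APOA5, APOA1 and APOE lie higher with sorafenib than with DMSO within each genotype, and APOA2 and APOB lie lower.

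Sorafenib against DMSO was tested on counts, so the per-library values below are CPM, and a gene was called at an edgeR adjusted p under 0.05 over all genes. In ARID1B-KO 7 of the 9 genes rose and 2 fell, where 46.7% of all genes were called, 23% higher and 23.7% lower. In WT 5 rose, 2 fell and 2 did not pass, where 35.4% of all genes were called, 17.5% higher and 18% lower. The members' median log2 fold change was 1.07 in ARID1B-KO (0.01 over all genes) and 0.72 in WT (-0.01 over all genes). The groups did not overlap for 9 of 9 members in ARID1B-KO and 8 of 9 in WT, against 52.9% and 50.8% of all genes.

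Among the 9 members, APOC3 and APOA5 had the highest log2 fold changes in both genotypes. APOC3, which slows the clearance of triglyceride-rich particles, was at 323, 291 and 308 CPM in ARID1B-KO with sorafenib, against 48.0, 52.0 and 43.95 CPM in ARID1B-KO with DMSO. It was at 188, 184 and 187 CPM in WT with sorafenib, against 39.0, 32.6 and 30.7 CPM in WT with DMSO. Every sorafenib library was above every DMSO library. Its log2 fold change was 2.68 ± 0.10 in ARID1B-KO (edgeR adjusted p = 2.92e-09) and 2.45 ± 0.10 in WT (adjusted p = 5.45e-09). APOA5, which promotes triglyceride breakdown by lipoprotein lipase, was at 276, 242 and 179 CPM in ARID1B-KO with sorafenib, against 58.9, 45.6 and 39.9 CPM in ARID1B-KO with DMSO. In WT it was at 144, 149 and 157 CPM with sorafenib, against 34.1, 38.0 and 38.9 CPM with DMSO. These are rises of 2.27 ± 0.16 in ARID1B-KO and 2.02 ± 0.16 in WT (adjusted p = 3.95e-07 and 1.65e-06). So genes with opposing roles in triglyceride clearance rose in the same libraries.

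APOC2 and APOC1 moved less. APOC2, the cofactor of lipoprotein lipase, was at 207, 187 and 170.2 CPM in ARID1B-KO with sorafenib, against 111, 159 and 150.0 CPM in ARID1B-KO with DMSO. It was at 169.7, 155 and 159 CPM in WT with sorafenib, against 123, 146 and 109.5 CPM in WT with DMSO. The change was 0.42 ± 0.14 in ARID1B-KO (adjusted p = 0.0216) and 0.35 ± 0.14 in WT (adjusted p = 0.0586, 95% interval 0.06 to 0.65). The call in ARID1B-KO was lost without ARID1B-KO DMSO replicate 1 (0.30, adjusted p = 0.072) and without ARID1B-KO sorafenib replicates 1 (adjusted p = 0.0688) or 2 (adjusted p = 0.0503), and in WT the gene passed without WT DMSO replicate 2 (0.47, adjusted p = 0.0293) or ARID1B-KO DMSO replicate 1 (adjusted p = 0.0265). The WT change passed in 5 of 22 settings and ran from 0.194 to 0.473 over them. With counts corrected for effective transcript length it was 0.254 (edgeR adjusted p = 0.249). The ratio of APOC3 to APOC2 TPM was 1.20 ± 0.08 in ARID1B-KO with sorafenib, against 0.24 ± 0.054 in ARID1B-KO with DMSO, and 0.965 ± 0.117 in WT with sorafenib, against 0.205 ± 0.0264 in WT with DMSO.

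APOC1, which can inhibit lipid transfer and uptake, was at 179, 139.7 and 176 CPM in ARID1B-KO with sorafenib, against 73.9, 120.4 and 122 CPM in ARID1B-KO with DMSO. In WT it was at 185, 149 and 167 CPM with sorafenib, against 157, 129.4 and 129.7 CPM with DMSO, with overlapping groups. It rose by 0.64 ± 0.17 in ARID1B-KO (edgeR adjusted p = 0.00916), and its change in WT was 0.27 ± 0.17 (adjusted p = 0.257, 95% interval -0.11 to 0.65).

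Of the HDL proteins, APOA1 and APOA4 rose and APOA2 fell. APOA1, which activates the plasma enzyme LCAT, was at 11728, 9707 and 7936.5 CPM in ARID1B-KO with sorafenib, against 4092, 4176 and 3614 CPM in ARID1B-KO with DMSO. It was at 7957, 8416.5 and 8066.5 CPM in WT with sorafenib, against 3471, 3433.5 and 3453 CPM in WT with DMSO. The rise was 1.31 ± 0.15 in ARID1B-KO (adjusted p = 1.42e-05) and 1.24 ± 0.15 in WT (adjusted p = 3.45e-05). ARID1B-KO sorafenib libraries were more spread than the WT ones, replicate 1 highest.

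APOA2 went the other way. It was at 1049, 888 and 946 CPM in ARID1B-KO with sorafenib, against 1254, 1962 and 2162 CPM in ARID1B-KO with DMSO. WT had 1149.5, 1169 and 1142.5 CPM with sorafenib, against 2864, 2743 and 2520.2 CPM with DMSO. The fall was -0.90 ± 0.17 in ARID1B-KO (adjusted p = 0.000761) and -1.23 ± 0.17 in WT (adjusted p = 0.000112). The ratio of APOA1 to APOA2 TPM was 1.09 ± 0.115 in ARID1B-KO with sorafenib, against 0.264 ± 0.0617 in ARID1B-KO with DMSO, and 1.11 ± 0.0396 in WT with sorafenib, against 0.209 ± 0.0329 in WT with DMSO.

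APOA4, made mainly by the intestine in humans, was low throughout. It was at 11.7, 9.81 and 10.2 CPM in ARID1B-KO with sorafenib, against 2.71, 2.29 and 2.36 CPM in ARID1B-KO with DMSO, and at 6.74, 7.66 and 7.66 CPM in WT with sorafenib, against 3.94, 2.81 and 3.52 CPM in WT with DMSO. It rose by 2.11 ± 0.16 in ARID1B-KO and by 1.10 ± 0.15 in WT (edgeR adjusted p = 5.25e-07 and 0.000132). The gut fatty acid binding protein FABP2, a marker of gut epithelium, averaged 1.98 CPM in ARID1B-KO with sorafenib, 2.48 CPM in ARID1B-KO with DMSO, 1.38 CPM in WT with sorafenib and 1.59 CPM in WT with DMSO.

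APOE and APOB, the ligands of the LDL receptor family, moved in opposite directions. APOE was at 5951, 5026 and 3604.5 CPM in ARID1B-KO with sorafenib, against 2175, 2603 and 2179 CPM in ARID1B-KO with DMSO. It was at 2576, 3153 and 2606 CPM in WT with sorafenib, against 1592, 1706 and 1771 CPM in WT with DMSO. It rose by 1.07 ± 0.17 in ARID1B-KO (adjusted p = 0.000243) and 0.72 ± 0.17 in WT (adjusted p = 0.00538). The ratio of APOE to APOB TPM was 3.96 ± 0.0713 in ARID1B-KO with sorafenib, against 1.17 ± 0.234 in ARID1B-KO with DMSO, and 2.22 ± 0.121 in WT with sorafenib, against 0.842 ± 0.104 in WT with DMSO. The size of this ratio also leans on the share given to APOE-204.

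APOB was at 12050, 9749 and 7226 CPM in ARID1B-KO with sorafenib, against 18869, 20205 and 13128 CPM in ARID1B-KO with DMSO. WT had 10488, 13320 and 10547 CPM with sorafenib, against 14544, 19712 and 20365 CPM with DMSO. It fell by -0.85 ± 0.23 in ARID1B-KO (adjusted p = 0.00786) and by -0.67 ± 0.22 in WT (adjusted p = 0.0341). In WT the call was lost without any one of WT DMSO replicate 2 (-0.61, adjusted p = 0.101), WT DMSO replicate 3 (-0.58, adjusted p = 0.106), WT sorafenib replicate 1 (-0.61, adjusted p = 0.11), WT sorafenib replicate 3 (-0.61, adjusted p = 0.111) or ARID1B-KO sorafenib replicate 2 (-0.67, adjusted p = 0.0509). APOB has the longest transcript of the set, at 14121 bases, and its spread within groups moved with the level of long transcripts in a library. That level was taken as the median centred log2 CPM of 749 genes over 6000 bases minus that of 3293 genes under 1000 bases. The order of the 3 libraries by APOB and by this difference was the same in 4 of 4 groups. The difference itself overlapped between treatments, at -0.214 to 0.192 in ARID1B-KO with sorafenib, against -0.252 to 0.055 in ARID1B-KO with DMSO, and -0.013 to 0.294 in WT with sorafenib, against -0.306 to 0.19 in WT with DMSO. Its part in the APOB result was not tested.

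**Figure D2:**
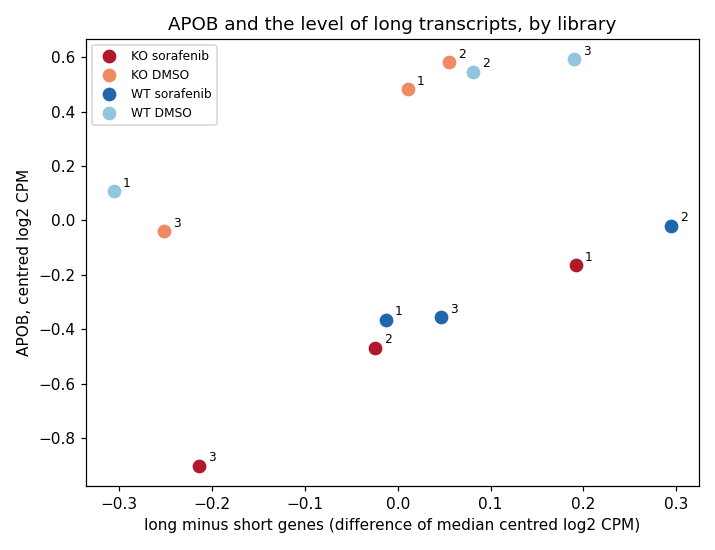
APOB level (log2 CPM centred on the mean of 12 libraries, vertical) against the long-minus-short difference of each library (log2, horizontal). Points are libraries with their replicate number. Within each group APOB is highest in the library with the highest difference. The part of the difference in the APOB result was not tested.

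**Figure D3:**
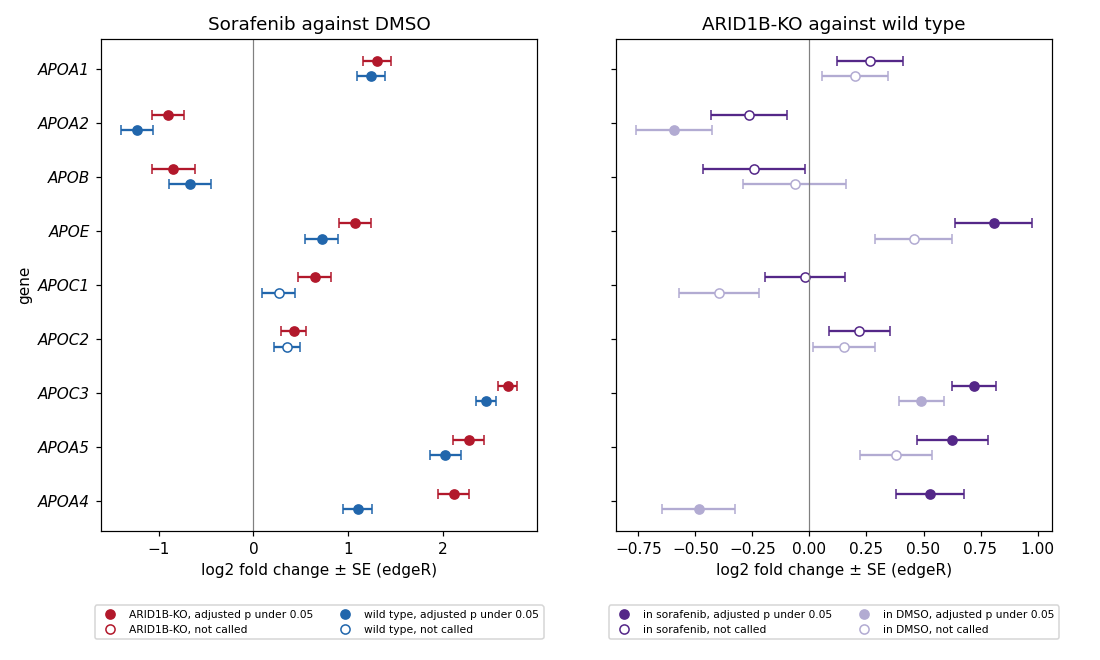
Log2 fold change with its SE for each member, for sorafenib against DMSO in ARID1B-KO and WT (left) and for ARID1B-KO against WT with sorafenib and with DMSO (right). Filled points passed an adjusted p under 0.05; the sorafenib changes run from -1.23 to 2.68, and the genotype differences from -0.60 to 0.81.

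ARID1B-KO was set against WT within each treatment. With sorafenib, 4 of the 9 genes were higher in ARID1B-KO than in WT (27% of all genes were called, 13.2% higher and 13.8% lower), and with DMSO 1 was higher and 2 were lower (27.8% of all genes were called, 14.3% higher and 13.5% lower). No member was lower with sorafenib, by edgeR at an adjusted or unadjusted p under 0.05 (0 and 0 of 9) or by DESeq2 (0). The members' median log2 difference was 0.27 with sorafenib and 0.15 with DMSO, against 0.00 and 0.01 over all genes. Groups did not overlap for 6 of 9 members with sorafenib and 7 of 9 with DMSO, against 42.7% and 42.2% of all genes.

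APOC3 was the one member higher in ARID1B-KO under both treatments, by 0.72 ± 0.10 with sorafenib and 0.49 ± 0.10 with DMSO (edgeR adjusted p = 0.000141 and 0.00272). APOE was higher by 0.81 ± 0.17 with sorafenib (adjusted p = 0.00369) and stood at 0.46 ± 0.17 with DMSO (adjusted p = 0.0618), where it passed the test without ARID1B-KO sorafenib replicate 1 (adjusted p = 0.0407) or 3 (adjusted p = 0.0152). APOA5 was higher by 0.63 ± 0.15 with sorafenib (adjusted p = 0.0096), and at 0.38 ± 0.16 with DMSO (adjusted p = 0.0938), where it passed without ARID1B-KO sorafenib replicate 3 (adjusted p = 0.0356). With counts corrected for the effective length of the transcripts in each library, the APOA5 difference was 0.18 with sorafenib (adjusted p = 0.557) and 0.03 with DMSO (adjusted p = 0.925).

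APOA4 was higher in ARID1B-KO with sorafenib, by 0.53 ± 0.15 (adjusted p = 0.0187), and lower with DMSO, by -0.48 ± 0.16 (adjusted p = 0.0389). The call with sorafenib was lost without WT sorafenib replicate 1 (0.47, adjusted p = 0.0734) or ARID1B-KO sorafenib replicate 1 (0.45, adjusted p = 0.0725), and with the length correction (0.53, adjusted p = 0.07). The call with DMSO was lost without WT DMSO replicate 1 (-0.37, adjusted p = 0.124) or 3 (adjusted p = 0.0969), ARID1B-KO DMSO replicate 2 (adjusted p = 0.108) or 3 (adjusted p = 0.103), WT sorafenib replicate 2 (adjusted p = 0.0503) or 3 (adjusted p = 0.0518), or ARID1B-KO sorafenib replicate 2 (adjusted p = 0.0505), and with the length correction it stood at -0.41 (adjusted p = 0.162). In all, 12 of 22 settings lost the call with DMSO. Among them were library totals (edgeR adjusted p = 0.0587) and no filter on low counts (adjusted p = 0.0696). The others were only the 2 groups of the contrast (adjusted p = 0.141) and protein-coding transcripts only (adjusted p = 0.0507). APOA4 had 157 reads over the ARID1B-KO DMSO group and 269 over the WT DMSO group.

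APOA1, APOB, APOC2 and APOC1 did not pass between genotypes under either treatment. APOA1 was at 0.27 ± 0.14 with sorafenib (95% interval -0.05 to 0.58) and 0.20 ± 0.14 with DMSO (-0.12 to 0.51); without ARID1B-KO sorafenib replicate 3 the first passed (0.40, adjusted p = 0.0375). APOB was at -0.24 ± 0.22 and -0.07 ± 0.22, APOC2 at 0.22 ± 0.14 and 0.15 ± 0.14, and APOC1 at -0.02 ± 0.17 and -0.40 ± 0.17, each with sorafenib and with DMSO in that order. For APOC1 the length correction gave 0.72 with sorafenib (adjusted p = 0.024) and 0.18 with DMSO (adjusted p = 0.566), so its direction depends on that choice. With protein-coding transcripts only, APOC1 was called lower in ARID1B-KO with DMSO (-0.56, adjusted p = 0.0449).

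The response to sorafenib in ARID1B-KO minus that in WT passed the test for 0 of 9 members by edgeR, where 0.835% of all genes passed (0.374% higher and 0.46% lower), and 1 member passed at an unadjusted p under 0.05. That gene was APOA4, at 1.01 ± 0.22 (adjusted p = 0.0531), which DESeq2 called (1.03, adjusted p = 0.00475). The other differences ran from -0.18 ± 0.32 for APOB to 0.38 ± 0.25 for APOC1, so a larger or smaller response in ARID1B-KO was not shown for them.

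APOA2 was lower in ARID1B-KO with DMSO on the CPM scale, by -0.60 ± 0.17 (edgeR adjusted p = 0.0178), and stood at -0.26 ± 0.17 with sorafenib (adjusted p = 0.27). The call with DMSO was lost without WT DMSO replicate 2 (adjusted p = 0.0538), and with the length correction the difference was -0.02 with DMSO (adjusted p = 0.956) and turned to 0.37 with sorafenib (adjusted p = 0.12). The split of APOA2 counts among transcripts is given as a description, chosen after its values were seen and without a test. APOA2-201, the standard transcript of 474 bases, held 70.7%, 35.5% and 62.3% of the gene's estimated counts in ARID1B-KO with sorafenib and 39.4%, 71.9% and 36.1% in ARID1B-KO with DMSO. It held 88.8%, 87.9% and 88.3% in WT with sorafenib and 86.8%, 90.6% and 91.7% in WT with DMSO.

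The counts missing from APOA2-201 were mostly in APOA2-203, a transcript of 401 bases. It held 3872, 9045 and 4206 estimated counts in ARID1B-KO with sorafenib and 11942, 5692 and 23326 in ARID1B-KO with DMSO. WT libraries held 0, 0 and 0 with sorafenib, and 62.4, 5.81 and 10.3 with DMSO. Every ARID1B-KO library was thus far above every WT library, with wide spread inside the ARID1B-KO groups. APOA2-203 lacks the 76-base exon 2 of APOA2-201 (chromosome 1, 161223350 to 161223425), which holds the start codon and 52 of the 300 coding bases. The coding bases of that exon are shown with the start codon in capitals, followed by the first 30 bases of exon 3, which in APOA2-203 follow exon 1 directly. They are read from GRCh38 on the minus strand.
APOA2 exon 2 coding part: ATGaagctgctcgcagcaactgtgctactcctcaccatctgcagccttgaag
APOA2 exon 3 start: gagctttggttcggagacaggcaaaggagc

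The coding region annotated for APOA2-203 is 156 bases. APOA2-210, of 263 bases, held 4.88% to 12.9% of the gene's counts in the ARID1B-KO libraries and 1.18% to 5.1% in the WT libraries, but 27.7% to 52.0% and 9.66% to 32.6% of its TPM, because TPM divides by an effective length that is small for so short a transcript. APOA2 TPM therefore leans on that transcript. Salmon divides reads between overlapping transcripts, so all these shares are estimates.

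APOA5 counts were also divided among transcripts. APOA5-203 held 80.7% to 90.8% of its counts in the 6 WT libraries. In ARID1B-KO it held 18.1%, 47.6% and 72.3% with sorafenib and 82.7%, 93.2% and 0% with DMSO, and APOA5-201, the standard transcript, took 77.8%, 52.4% and 26.9% with sorafenib and 14.6%, 0% and 100.0% with DMSO. The split was unstable between replicates of one group. APOA4 has a single transcript, and APOB-201 held a mean of 99.966% to 99.975% of the APOB counts per group.

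**Figure D4:**
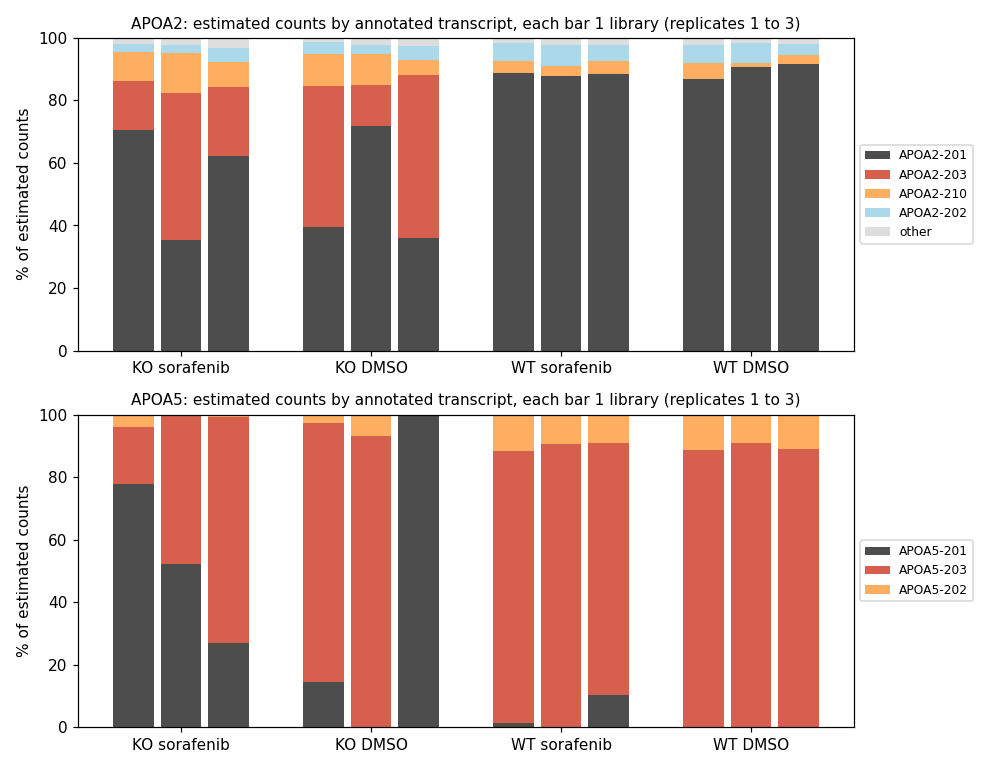
Share of the estimated counts of APOA2 (top) and APOA5 (bottom) given to each annotated transcript, in percent, with 1 bar per library. APOA2-203 takes 13.03% to 51.9% in the ARID1B-KO libraries and at most 0.075% in the WT libraries.

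APOC2 shares its exons with the readthrough gene APOC4-APOC2, to which Salmon gave 0.71%, 0.17% and 14.5% of their joint counts in ARID1B-KO with sorafenib and 0.07%, 0.61% and 0% in ARID1B-KO with DMSO. The shares were 2.59%, 5.38% and 5.29% in WT with sorafenib and 23.0%, 0.42% and 19.5% in WT with DMSO. The gene's level is uncertain by that much, which also bears on its change with sorafenib in WT.

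All 4 members on chromosome 11 rose with sorafenib in both genotypes. Of the 3 other tested genes reaching within 100 kb, BUD13, ZPR1 and SIK3, SIK3 fell in ARID1B-KO by -0.30 ± 0.10 (edgeR adjusted p = 0.0309) and the remaining tests did not pass. ZPR1, whose start lies 1.3 kb outside the cluster, was at -0.01 ± 0.10 in ARID1B-KO and 0.03 ± 0.10 in WT. On chromosome 19, TOMM40, a mitochondrial import channel gene next to APOE, fell by -1.015 ± 0.076 in ARID1B-KO and -0.748 ± 0.075 in WT (adjusted p = 4.7e-07 and 9.2e-06), opposite to APOE. Of the 9 tested genes there outside the members, TOMM40, APOC4 and APOC4-APOC2 included, 2 rose and 1 fell in ARID1B-KO. In WT TOMM40 alone was called.

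**Figure D5:**
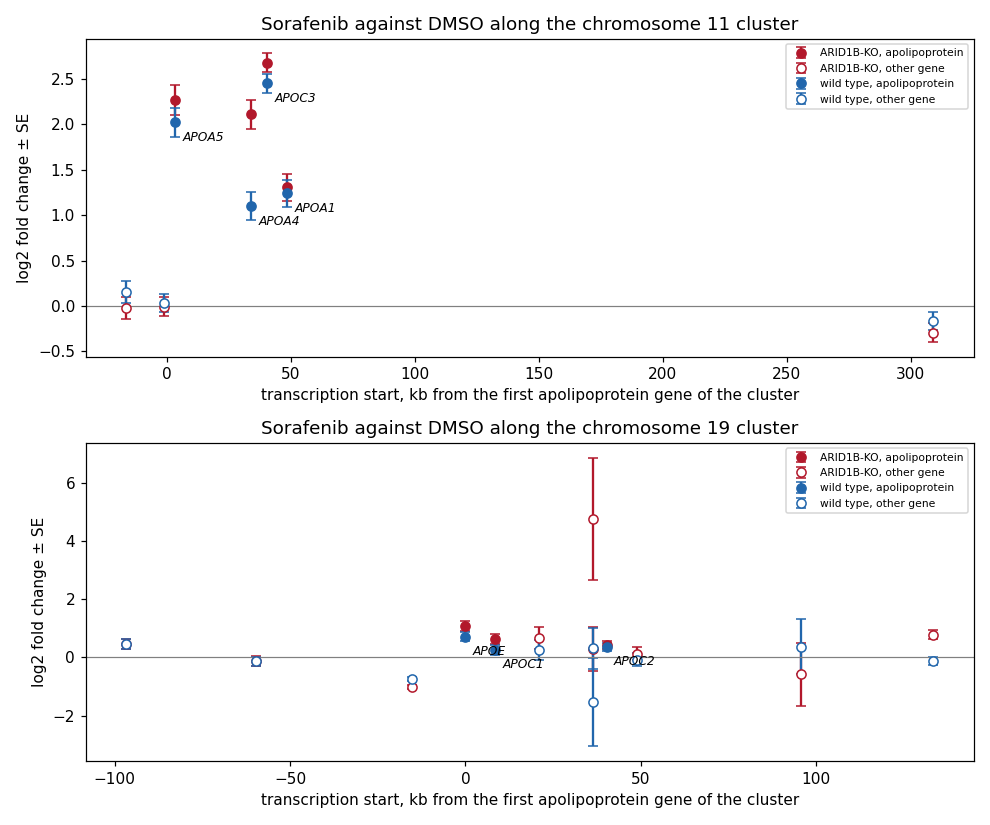
Log2 fold change with its SE for sorafenib against DMSO, by transcription start in kb from the first apolipoprotein gene, along the chromosome 11 cluster (top) and the chromosome 19 cluster (bottom). Filled points are the members and open points the other tested genes, among them APOC4 and APOC4-APOC2. The filled points on chromosome 11 lie between 1.10 and 2.68, and ZPR1 lies near 0.

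Other genes of lipoprotein biology were read from lists. Their counts stand against the shares of all genes called with sorafenib, 23% higher and 23.7% lower in ARID1B-KO and 17.5% higher and 18% lower in WT. Of 13 tested plasma enzymes and lipid transfer genes, 7 rose with sorafenib in ARID1B-KO and 6 did not pass. In WT 6 rose, 1 fell and 6 did not pass. LCAT, which esterifies cholesterol on HDL, rose by 1.05 ± 0.09 in ARID1B-KO and 0.65 ± 0.09 in WT (edgeR adjusted p = 1.91e-06 and 0.000141). ANGPTL4, an inhibitor of lipoprotein lipase, rose by 2.56 ± 0.26 in ARID1B-KO, and hepatic lipase, LIPC, by 0.85 ± 0.14 in WT. Of 6 efflux genes, 5 rose and 1 did not pass in ARID1B-KO, and 5 rose and 1 fell in WT. ABCG5, a subunit of the ABCG5-ABCG8 sterol exporter, rose by 1.43 ± 0.17 in ARID1B-KO, its partner ABCG8 by 1.08 ± 0.16 in WT, and NPC1, the lysosomal cholesterol transporter, fell by -0.74 ± 0.15 in WT. Genes were named by the size of the change within a genotype, so a gene named in 1 genotype is not shown to respond only there. In the test of the difference of responses, 0 of 6 efflux genes and 0 of 13 plasma enzyme and transfer genes passed.

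Among 15 assembly and secretion genes, 6 rose with sorafenib in ARID1B-KO and 9 did not pass, and 5 rose, 1 fell and 9 did not pass in WT. CIDEB, which acts in lipidation of very low density lipoprotein, rose by 1.44 ± 0.09 in ARID1B-KO and 1.28 ± 0.09 in WT. Receptors were near the shares of all genes, with 3 of 12 higher and 3 lower in ARID1B-KO and 2 higher and 2 lower in WT. LRP8, an APOE receptor, fell by -2.12 ± 0.12 in ARID1B-KO and -1.79 ± 0.12 in WT (adjusted p = 5.64e-08 and 2.39e-07). Of 12 other apolipoproteins, 5 rose and 3 fell in each genotype. SAA4 fell by -1.12 ± 0.12 in ARID1B-KO and -1.08 ± 0.12 in WT, and APOL2 rose by 1.04 ± 0.11 and 0.81 ± 0.11.

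Regulators known to act on apolipoprotein genes numbered 27 tested. With sorafenib 13 rose and 3 fell in ARID1B-KO, with a median of 0.22, and 18 rose and 2 fell in WT, with a median of 0.43. CREB3L3, a liver transcription factor that in mice activates Apoa4, Apoa5 and Apoc2, rose by 1.79 ± 0.12 in ARID1B-KO and 1.71 ± 0.12 in WT (adjusted p = 2.31e-07 and 6.02e-07). NR0B2, a nuclear receptor without a DNA-binding domain that represses other receptors, fell by -2.42 ± 0.09 in ARID1B-KO and -2.19 ± 0.09 in WT. FOXO1, an activator of APOC3, fell by -0.97 ± 0.10 and -0.73 ± 0.10.

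Between genotypes with DMSO, 7 regulators were higher in ARID1B-KO and 4 lower, where 14.3% of all genes were higher and 13.5% lower. NR5A2, a nuclear receptor of liver, was lower by -2.40 ± 0.24 and CEBPA, a hepatocyte transcription factor, was higher by 1.02 ± 0.07. Of the 12 receptors, 2 were lower with DMSO and 10 did not pass. The lower genes were VLDLR (-2.74 ± 0.40, adjusted p = 0.000263), a receptor for APOE-bearing particles, and MYLIP (-1.58 ± 0.15, adjusted p = 5.92e-06), the ligase that directs LDL receptors to breakdown. SAA4 was higher by 1.69 ± 0.12 and APOF lower by -1.55 ± 0.21.

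The closest profiles over the 12 libraries were found among 10020 genes by the root mean square difference of centred log2 CPM. They were GNMT for APOC3 (0.188, where APOC3's own spread was 1.32), REEP6 for APOA1 (0.117, own spread 0.654), TMEM140 for APOA5 (0.138, own spread 1.11), KLHL24 for APOA4 (0.188, own spread 0.839), CARD9 for APOA2 (0.145, own spread 0.605), SLC1A4 for APOB (0.105, own spread 0.461) and TMEM37 for APOE (0.114, own spread 0.571). KMT2E for APOC2 (0.118) and MRPL53 for APOC1 (0.11) were matched against small own spreads of 0.268 and 0.349.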

How the data were processed

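Each library has a Salmon table of 177456 transcripts with, per the file headers, length, effective length, TPM and number of reads. The deposited read numbers are estimated counts and need not be whole; the deposited TPM are per effective length and scaled within a library. Salmon, DESeq2 1.46.0 and GRCh38 are named in the submitters' processing notes. The version of Salmon and its strand and bias settings are not given in the sources used here.

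Transcripts were matched to GENCODE release 44. The match covered 165533 transcripts (93.28%), and the rest, with 2.87% to 3.2% of a library's counts, were left out. Estimated counts were summed per gene and rounded. edgeR 4.0.16 in R 4.3.3 was used with TMM factors, filterByExpr and the robust quasi-likelihood F test, in a single fit of 4 group means over 12 libraries. Benjamini-Hochberg adjustment ran over all 12821 genes tested. The standard error is the absolute log2 fold change over the square root of F, and 95% intervals use the test's degrees of freedom. TPM was used to compare genes, with no test. On simulated counts modelled on the WT sorafenib comparison (12448 genes) the fit recovered 91% of genes changed 2-fold and 63% of those changed 1.5-fold. The simulation changed 200 genes at each size, and 10 unchanged genes were called. In the data 35.4% of all genes were called in that comparison, and recovery after adjustment depends on the share of changed genes. The recovered percentages therefore need not hold for the data. Recovery was not split by expression level, so it does not speak for low genes such as APOA4.

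Members and gene lists were chosen with earlier results of these data known. From the lists the text names, per comparison, up to 2 called genes with the largest rise and 2 with the largest fall whose higher group averaged 5 CPM or more. Transcript shares and the length difference were looked at after the values were seen. Alternatives were other scalings, no filter, DESeq2 1.42.0, a length offset, protein-coding transcripts only, 2-group fits, a replicate block and each library left out; adding APOC4-APOC2 to APOC2 was chosen after seeing the data.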

Additional observations from a re-analysis of the deposited data

Results flagged for a closer look

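Among the gene lists read beside the apolipoproteins, 2 genes differed between genotypes in their response to sorafenib by the edgeR test of the difference itself. They were 1 of 15 assembly and secretion genes and 1 of 27 regulators, where 0.835% of all genes passed. Their values under the other settings were not examined. Over all genes, the 107 calls of this test became 2 with the length offset and 584 with DESeq2. SOAT2, which makes cholesteryl esters for lipoprotein assembly, was at 19.1, 14.6 and 15.9 CPM in ARID1B-KO with sorafenib, against 13.3, 14.3 and 12.9 CPM in ARID1B-KO with DMSO, and at 19.3, 25.6 and 23.0 CPM in WT with sorafenib, against 30.2, 39.5 and 35.2 CPM in WT with DMSO. Its response in ARID1B-KO minus that in WT was 0.919 ± 0.19 on the log2 scale (edgeR adjusted p = 0.0438). It fell in WT by -0.63 ± 0.13 and stood at 0.29 ± 0.14 in ARID1B-KO (adjusted p = 0.0965).

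CEBPA, a hepatocyte transcription factor, was at 360.3, 351 and 343 CPM in ARID1B-KO with sorafenib, against 315, 292 and 296 CPM in ARID1B-KO with DMSO, and at 272, 282 and 282 CPM in WT with sorafenib, against 152, 146 and 148 CPM in WT with DMSO. Its difference of responses was -0.683 ± 0.10 (edgeR adjusted p = 0.0181), with a rise of 0.22 ± 0.07 in ARID1B-KO and 0.91 ± 0.07 in WT.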

How the results depend on the processing

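Of 981 alternative values of single members over 22 settings, 926 kept their direction and their side of the threshold, 29 lost a call, 15 gained one and 11 changed sign. The rises of APOA1, APOA4, APOA5, APOC3 and APOE with sorafenib and the fall of APOA2 kept their calls under every setting run in both genotypes. Between genotypes, the length offset turned APOC1 to 0.721 with sorafenib and 0.177 with DMSO, and APOA2 to 0.368 with sorafenib. The other changes of sign were in values that were not called: APOC2 with DMSO at -0.07 with the readthrough gene added, and, as 1 library or another was left out, APOB with DMSO (-0.204 to 0.1), APOC1 with sorafenib (-0.099 to 0.086), and the difference of responses of APOC2 (-0.053 to 0.18) and of APOA1 (-0.072 to 0.197). Member counts that changed by over 1.5 times outside the left-out libraries were those between genotypes with DMSO: 3 higher and 1 lower with library totals, 2 higher with DESeq2, 1 lower with no filter, 0 lower with the length offset, and 2 higher and 0 lower with only the 2 groups of the contrast. Smaller changes were 6 higher in ARID1B-KO with sorafenib under library totals or the length offset (APOC2 lost, adjusted p = 0.0861 and 0.0892), 6 higher in WT with sorafenib under upper quartile scaling, DESeq2 or only 2 groups (APOC2 gained), and 3 higher between genotypes with sorafenib under the length offset (APOA4 and APOA5 lost, APOC1 gained). DESeq2 also called 1 member higher in the difference of responses. Leaving out 1 library gave 1 to 2 lower in WT with sorafenib, and 1 to 3 higher and 1 to 2 lower between genotypes with DMSO. The cause was not tested.

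Over all genes, the length offset called 2867 genes with sorafenib in WT (4543 without it), 2189 between genotypes with DMSO (3563), 2046 with sorafenib (3463) and 2 in the difference of responses (107). For that difference, library totals gave 30, DESeq2 584, protein-coding transcripts 19 and leaving out 1 library 5 (without WT sorafenib replicate 2) to 138 (without ARID1B-KO sorafenib replicate 3). With library totals 38.3% of the genes called with sorafenib in ARID1B-KO were higher, against 49.3%.

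Deviations of same-numbered libraries from their group means had correlations of -0.163 to 0.184 over 18 pairs. Between treatments these were 0.084, 0.078 and 0.05 in WT, where differently numbered libraries gave -0.079 to 0.008. In ARID1B-KO they were 0.089, -0.021 and 0.184, against -0.169 to 0.099. Correlations this weak cannot decide whether the numbers mark pairs. With the replicate block the members called with sorafenib were 7 higher and 2 lower in ARID1B-KO and 5 and 2 in WT, and between genotypes 4 higher with sorafenib and 1 higher and 2 lower with DMSO; it moved the difference of responses over all genes to 19 calls. Few reads limit APOA4, and reads divided between overlapping transcripts limit APOA2, APOA5, APOC1, APOC2 and the TPM of APOE.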
